A study of Homo sapiens with 4 samples.

Results

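HRK and the core genes of the BCL2 family were followed in HEK293 cells kept in high or low glucose. HEK293 is an established human embryonic kidney cell line. The cells had spent 7 days in FCS-supplemented DMEM. In the high glucose group the medium held 450 mg/dl and in the low glucose group 100 mg/dl, and the labels name no genetic change or further agent in either. Total RNA was measured on 4 single-colour Affymetrix arrays, 2 biological replicates per group per the labels, which do not say how the cultures were kept apart. Of the 10 genes chosen, 9 had a probe set that the platform annotation assigns to that gene alone, out of 19775 genes with such a probe set on the array. BBC3 had none and was not analysed here. The 9 genes have 34 probe sets, and each of them is given below.

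HRK was chosen by its signal difference between high and low glucose in these same arrays, which was among the largest falls, and the other genes because they belong to the same family. All were picked with results of this comparison known. Their values are therefore a description, and no p-value is attached to any of them. Where a probe set is said to be past the threshold, the adjusted p of the limma fit over all 27307 probe sets above the filter was under 0.05.

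BCL2 family proteins decide whether the outer membrane of mitochondria is opened and cytochrome c released, the step that commits most cells to apoptosis. BAX and BAK1 are the effectors that form the pores. BCL2, BCL2L1 (BCL-XL) and MCL1 are survival proteins that hold the effectors in check. The BH3-only proteins, here HRK, PMAIP1 (NOXA), BCL2L11 (BIM) and BID, are switched on by stress or death receptors and either occupy the survival proteins or activate the effectors. Several of them are controlled mainly as transcripts, whereas BID is activated by cleavage and MCL1 is set largely by protein turnover, which RNA arrays do not measure. HEK293 cells also carry adenoviral E1 genes, which include a viral relative of BCL2, and its level was not measured here.

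The sequences just upstream of the transcript starts of HRK, PMAIP1 and BCL2L11 are shown because most measured probe sets of these 3 genes had lower signals in high glucose. They are the 250 bases before the start, 5′ to 3′ on the gene's own strand, taken from RefSeq on GRCh38.p14, whose table held a promoter for 8 of the 9 genes. Capitals mark matches to 4 motifs searched on both strands, which were chosen after the values and these sequences had been seen. They are TGATGNAA (the type bound by ATF4 and C/EBP factors in amino acid response elements), TGACGT (the core of a cAMP response element), TGANTCA (AP-1) and GTAAACA (forkhead factors).
HRK, chr12:116881442-116881691, minus strand: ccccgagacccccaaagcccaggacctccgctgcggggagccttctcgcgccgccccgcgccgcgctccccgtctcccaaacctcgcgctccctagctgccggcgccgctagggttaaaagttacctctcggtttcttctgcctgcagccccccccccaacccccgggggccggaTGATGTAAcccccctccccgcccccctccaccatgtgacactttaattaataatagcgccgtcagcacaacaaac
PMAIP1, chr18:59899746-59899995, plus strand: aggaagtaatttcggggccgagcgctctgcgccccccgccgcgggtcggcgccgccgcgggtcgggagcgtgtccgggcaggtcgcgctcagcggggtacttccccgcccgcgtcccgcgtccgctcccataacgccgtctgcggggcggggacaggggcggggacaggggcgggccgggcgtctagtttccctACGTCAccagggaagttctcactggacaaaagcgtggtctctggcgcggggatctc
BCL2L11, chr2:111120664-111120913, plus strand: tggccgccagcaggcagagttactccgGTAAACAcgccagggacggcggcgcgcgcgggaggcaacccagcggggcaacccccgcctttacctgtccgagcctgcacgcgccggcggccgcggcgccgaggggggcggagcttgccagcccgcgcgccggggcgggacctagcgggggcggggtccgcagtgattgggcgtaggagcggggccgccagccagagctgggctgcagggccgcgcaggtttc

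The HRK window held 1 match to TGATGNAA, written TGATGTAA and starting at position -75 from the transcript start. Of the 35116 promoter windows in the table, 3.14% held this motif, and HRK was the only one of the 8 family genes among them. TGACGT was found in PMAIP1 at -56, on the opposite strand as ACGTCA, and in 7.10% of all windows. GTAAACA was found in BCL2L11 at -223 and in 2.98% of all windows. TGANTCA, present in 6.57% of windows, was found in none of the 8 genes. A match of letters is not a measured binding site, and these arrays hold no binding data. Because the motifs were chosen with these sequences seen, nothing is read from the matches or from the shares beside them.

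Across the family, the BH3-only genes HRK, BCL2L11 and PMAIP1 had lower signals in high glucose. The effectors BAX and BAK1 and 2 of 3 BID probe sets had slightly higher ones, the third BID probe set a slightly lower one, and the survival genes went both ways. HRK was lower by 4.01-fold to 19.8-fold, the brightest BCL2L11 probe set by 1.99-fold and the brightest PMAIP1 probe set by 1.42-fold, while no BAX or BAK1 probe set differed by more than 1.31-fold. Of the 34 probe sets, 27 lay above the filter, and 7 below it were given no call. The filter was set on the mean log2 signal over the 4 arrays, at the level of a signal of 32.9. Of the 27, 6 were past the threshold and higher in high glucose, 10 were past it and lower, and 11 were not past it. Over all probe sets tested, 50.4% were past the threshold, 23.1% higher and 27.2% lower. The share among the family was 59.3%, or 52.2% without HRK, and nothing is read from either because the genes were chosen on this comparison. The high and low glucose arrays did not overlap in 25 of the 27 probe sets, against 76.8% of all.

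**Figure D1:**
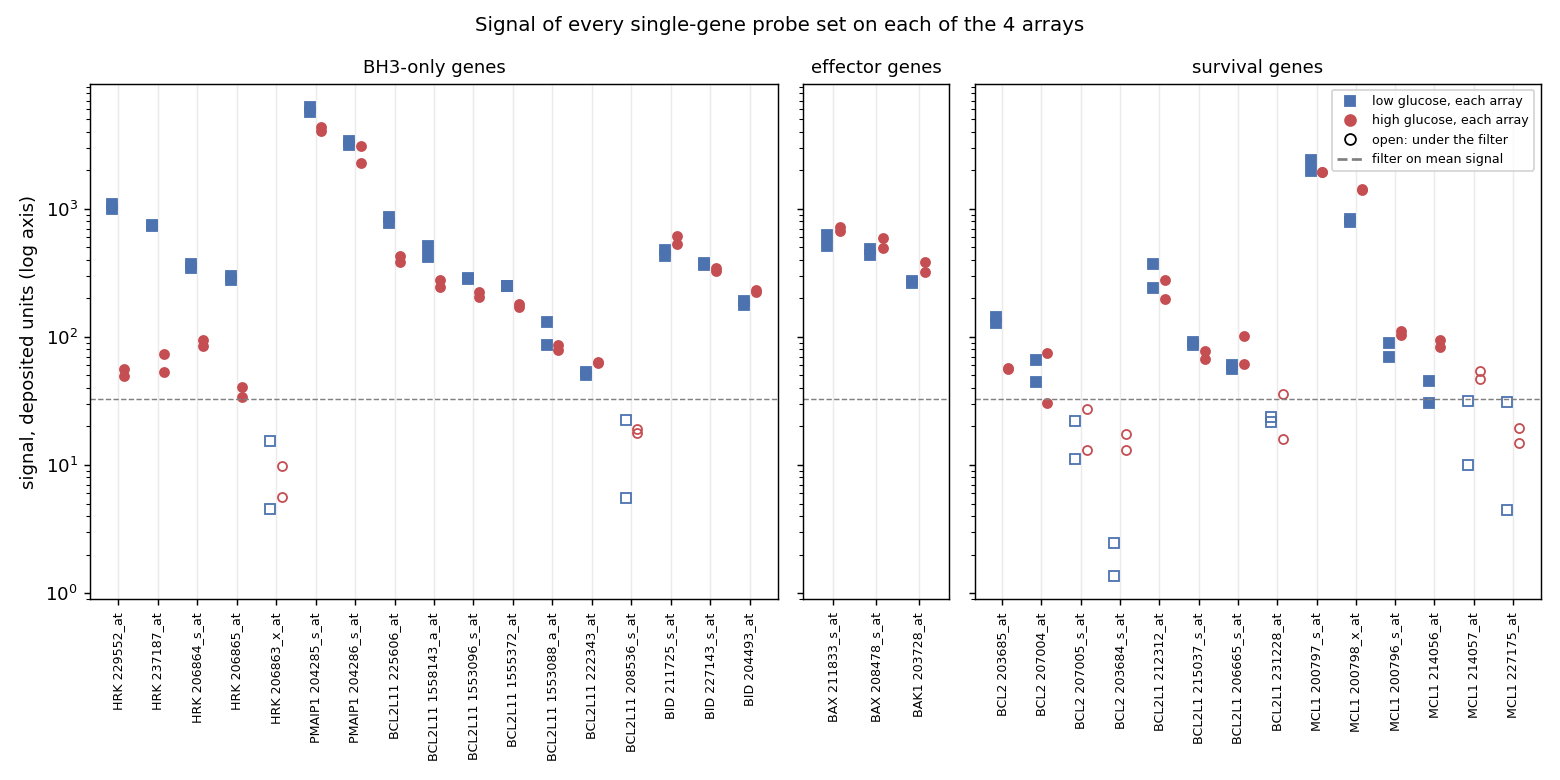
Signal of all 34 probe sets on each array, in deposited units on a log axis, with low glucose as squares, high glucose as circles, and 1 panel each for BH3-only, effector and survival genes. Open symbols are probe sets whose mean log2 signal lies under the filter, drawn as a dashed line at a signal of 32.9. The 4 HRK probe sets above the filter have high glucose signals between 33.9 and 93.8 and low glucose signals between 280.5 and 1092. Brightness differs between probe sets for reasons of probe design and is not compared between them.

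HRK, harakiri, is a BH3-only protein that binds BCL2 and BCL-XL and is best known from neurons deprived of growth factors. Its brightest probe set, 229552_at, read 56.1 and 49.8 in high glucose, against 1001 and 1092 in low glucose. Both high glucose arrays lay far under both low glucose arrays, a 19.8-fold difference (-4.31 ± 0.11 log2 units, SE of the fit). Probe set 237187_at read 53.5 and 73.9 in high glucose against 740.2 and 747.5 in low glucose, or 11.8-fold lower (-3.56 ± 0.16). In 206865_at the signals were 33.9 and 40.7 against 280.5 and 299.6, which is 7.80-fold lower (-2.96 ± 0.18). The high glucose signals of this probe set lay just above the filter signal. Probe set 206864_s_at gave 93.8 and 85.1 against 347.4 and 368.8, or 4.01-fold lower (-2.00 ± 0.12). Its name ends in _s_at, which on this platform marks probes that may match more than 1 transcript.

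The fifth HRK probe set, 206863_x_at, read 5.58 and 9.89 in high glucose, against 4.57 and 15.5 in low glucose. It lay below the filter with overlapping groups, and its suffix marks probes that may cross-hybridise. The 4 readable HRK probe sets thus had the same direction and separated groups, but the size of the difference ranged over 2.30 log2 units between them. Without detection calls, none of the high glucose signals can be called present or absent. In RNA from whole cultures, less HRK RNA in every cell and fewer cells with HRK RNA cannot be told apart. Of 12242 genes read by their brightest probe set above the filter, 7 had a larger fall than HRK.

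The genes whose pattern over the 4 arrays was most like that of HRK were SH3BGR, DDIT3, TRIB3, CYP4X1 and CLSTN2. Likeness was the root mean square distance between log2 signals, each gene centred on its own mean, over 4 arrays and 12242 genes, and it ranged from 0.11 for SH3BGR to 0.30 log2 units for CLSTN2. SH3BGR read 51.9 and 45.9 in high glucose, against 835.9 and 835.5 in low glucose. DDIT3, the stress transcription factor CHOP, read 151.3 and 167.0 against 3802 and 3520, and TRIB3, a pseudokinase, 471.3 and 558.4 against 7181 and 7672. CYP4X1 read 15.4 and 13.5 against 176.4 and 219.2, and CLSTN2 11.6 and 6.20 against 148.4 and 133.6. Both passed the filter only through low glucose, and since their high glucose signals are not shown to be above background, their likeness to HRK is uncertain. With 2 groups of 2 arrays the measure mostly ranks genes by a fall of similar size. The RefSeq table held promoters for 4 of these 5 genes. None of those 4 had TGATGNAA in the window, while DDIT3 had TGANTCA and CLSTN2 had TGACGT.

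BCL2L11 encodes BIM, which binds all the main survival proteins and can activate BAX directly. It has 7 probe sets, 6 of them above the filter. The brightest, 225606_at, read 386.8 and 429.2 in high glucose, against 768.2 and 858.8 in low glucose, a 1.99-fold lower signal with separated groups (-1.00 ± 0.09 log2 units). Probe set 1558143_a_at read 276.7 and 247.0 against 422.7 and 508.7, or 1.77-fold lower. Smaller differences of the same direction were read by 1555372_at, with 172.7 and 180.1 against 247.7 and 248.5 (1.41-fold), and by 1553096_s_at, with 224.0 and 205.0 against 289.2 and 285.7 (1.34-fold). These 4 were past the threshold.

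The remaining BCL2L11 probe sets were dimmer and less clear. Probe set 1553088_a_at read 86.0 and 78.5 in high glucose, against 87.2 and 130.2 in low glucose, where 1 low glucose array nearly met the high glucose ones. Probe set 222343_at went the opposite way, with 62.7 and 64.2 against 50.6 and 53.3 (0.29 ± 0.23 log2 units), and neither was past the threshold. Below the filter, 208536_s_at read 17.6 and 19.0 against 5.48 and 22.4, with overlapping groups. BCL2L11 is spliced into many forms, and which forms each probe set reads was not analysed here. The call of 1553096_s_at was not past the threshold without high glucose replicate 2 (-0.36) or after median centring (-0.25).

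PMAIP1 encodes NOXA, a BH3-only protein that mainly binds MCL1. Probe set 204285_s_at read 4028 and 4370 in high glucose, against 5691 and 6227 in low glucose, a 1.42-fold lower signal past the threshold (-0.50 ± 0.08 log2 units). Probe set 204286_s_at read 3102 and 2266 against 3164 and 3366. Here high glucose replicate 1 almost reached low glucose replicate 1, and the difference (-0.30 ± 0.13) was not past the threshold. It stood at -0.07 without high glucose replicate 2, and at -0.53, past the threshold, without high glucose replicate 1. Both probe sets were bright in both groups.

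BID links death receptors to mitochondria, since caspase-8 cleaves it into an active fragment. Probe set 211725_s_at read 528.2 and 617.2 in high glucose, against 474.0 and 425.6 in low glucose, or 1.27-fold higher (0.35 ± 0.10 log2 units). Probe set 204493_at read 233.9 and 224.0 against 190.7 and 178.3, which is 1.24-fold higher. The third, 227143_s_at, had slightly lower signals in high glucose, 329.1 and 346.9 against 365.2 and 375.9, and was not past the threshold. Groups were separated in all 3, yet the calls were fragile. Probe set 204493_at lost its call without any 1 of the 4 arrays, at 0.26 to 0.36 log2 units, and 211725_s_at lost it without high glucose replicate 2 (0.23) or low glucose replicate 2 (0.27). Without the intensity trend neither was called, and 204493_at was not called without the filter.

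The effectors differed little. BAX, which moves from the cytosol to mitochondria when activated, read 676.5 and 720.6 in high glucose, against 515.0 and 628.8 in low glucose with 211833_s_at, or 1.23-fold higher (0.30 ± 0.10 log2 units, past the threshold). Its other probe set, 208478_s_at, read 497.7 and 594.2 against 439.8 and 482.5 (0.24 ± 0.10, not past). BAK1, which sits in the mitochondrial outer membrane, has 1 probe set. It read 321.7 and 386.0 against 272.8 and 265.4, or 1.31-fold higher (0.39 ± 0.11). In each of the 3 effector probe sets both high glucose arrays lay above both low glucose arrays, by small margins. The BAX call was lost without high glucose replicate 1 (0.34), high glucose replicate 2 (0.25) or low glucose replicate 1 (0.15), and the BAK1 call without high glucose replicate 2 (0.26). Without the intensity trend both calls were lost, and the BAX call also after quantile normalization (0.27) or without the filter. Probe set 208478_s_at stood at 0.11 without high glucose replicate 2. It was past the threshold without high glucose replicate 1 (0.37) and after median centring (0.41). The differences were above 0 under every setting in which these probe sets were fitted, 12 for 208478_s_at and 13 for the others, with a range of 0.11 to 0.56 log2 units.

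**Figure D2:**
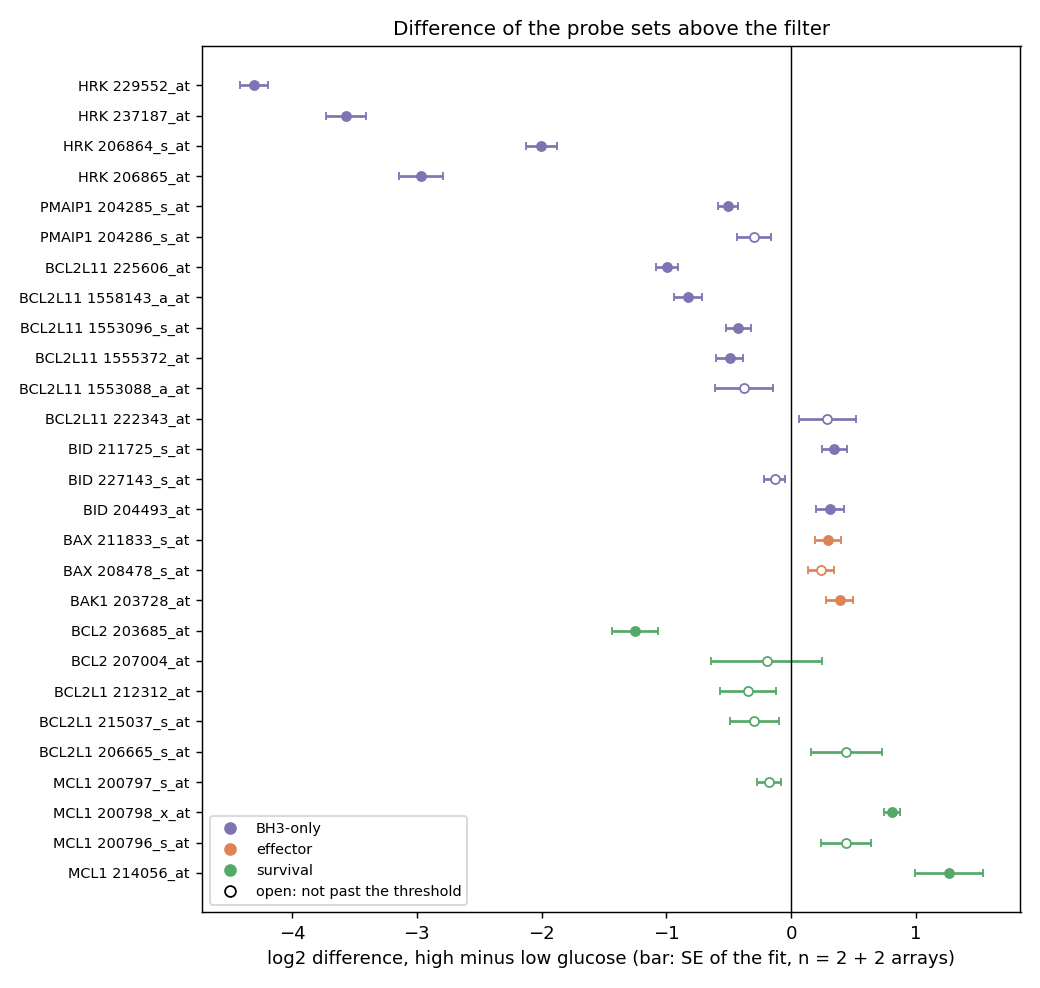
Log2 difference, high minus low glucose, of the 27 probe sets above the filter, with the standard error of the fit as bars (2 arrays per group), coloured by role. Filled points were past the threshold. HRK lies between -4.31 and -2.00, the effectors between 0.24 and 0.39, and the survival genes between -1.25 and 1.26.

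Among the survival genes, BCL2, the founding member of the family, had a lower signal in high glucose in its brightest probe set. Probe set 203685_at read 56.5 and 57.0 in high glucose, against 128.2 and 141.9 in low glucose, or 2.38-fold lower (-1.25 ± 0.18 log2 units, past the threshold). The groups were well separated, although all 4 signals are low on this array. Probe set 207004_at read 30.4 and 74.9 against 66.6 and 44.8, and its groups overlapped. Below the filter, 207005_s_at read 27.3 and 13.1 against 11.2 and 22.1. Also below it, 203684_s_at read 17.5 and 13.0 against 2.47 and 1.36, higher in high glucose, at signals that are not shown to be above background.

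BCL2L1 encodes BCL-XL, the partner of HRK, and a short pro-apoptotic splice form. None of its probe sets was past the threshold. The brightest, 212312_at, read 199.2 and 277.1 in high glucose, against 369.6 and 240.8 in low glucose, with overlapping groups. Probe set 215037_s_at read 78.3 and 67.3 against 91.7 and 86.6 (-0.30 ± 0.20 log2 units). Probe set 206665_s_at read 61.1 and 101.1 against 55.7 and 60.2 (0.44 ± 0.28), where high glucose replicate 1 lay close to the low glucose arrays. Probe set 231228_at, below the filter, read 15.8 and 35.7 against 23.7 and 21.9. The difference of 212312_at was -0.04 without low glucose replicate 1 and -0.11 without high glucose replicate 1. It was -0.58 without high glucose replicate 2 and -0.65, past the threshold, without low glucose replicate 2.

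MCL1 encodes a short-lived survival protein that binds NOXA and BIM, and its probe sets did not give 1 answer. The brightest, 200797_s_at, read 1928 and 1941 in high glucose, against 1976 and 2420 in low glucose (-0.18 ± 0.10 log2 units, not past the threshold). The second brightest, 200798_x_at, read 1416 and 1413 against 786.0 and 830.2. This is 1.75-fold higher in high glucose (0.81 ± 0.06), past the threshold and with groups far apart. Its suffix, like that of the dim HRK probe set, marks probes that may cross-hybridise. Probe set 214056_at read 83.6 and 93.9 against 44.9 and 30.3, or 2.40-fold higher (1.26 ± 0.27, past the threshold).

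The other MCL1 probe sets were dimmer. Probe set 200796_s_at read 110.9 and 103.6 in high glucose, against 89.8 and 69.5 in low glucose (0.44 ± 0.20, not past). It was past the threshold and higher after quantile normalization (0.55), median centring (0.61) and cyclic loess (0.55). Below the filter, 214057_at read 46.7 and 54.2 against 31.4 and 9.98, with separated groups, and 227175_at read 19.4 and 14.7 against 4.44 and 30.9, with overlapping ones. The MCL1 probe sets above the filter spanned 1.44 log2 units, and which transcript ends or forms they read was not analysed here. The brightest stood at -0.03 without low glucose replicate 2, and at -0.32, past the threshold, without low glucose replicate 1.

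By role, 9 of the 15 BH3-only probe sets above the filter were past the threshold and lower in high glucose and 2 were higher, with a median of -0.49 log2 units. Without HRK these were 5 and 2 of 11, with a median of -0.37. The 3 effector probe sets had 2 higher and 0 lower, with a median of 0.30. Of 9 survival probe sets 2 were higher, 1 was lower and 6 were not past, with a median of -0.18. Over all probe sets above the filter 27.2% were past the threshold and lower and 23.1% higher, with a median of -0.06. HRK gave 4 of the 15 BH3-only probe sets and BCL2L11 6. Nothing is read from the counts by role, because the genes were chosen on this comparison. Of the 8 genes with several probe sets above the filter, 4 had differences of both signs, and none had calls in both directions. Probe sets of 1 gene share its RNA and are not replicates, so no test between the roles was made.

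Certain facts of the arrays stand beside all of these values. The 24 probe sets for poly-A control transcripts had higher signals in high glucose, with no overlap between the groups and a median difference of 1.94 log2 units. The differences of the family probe sets above the filter ran from -4.31 to 1.26 log2 units. How the control difference bears on any of them was not tested. The hybridisation controls had a median signal of 486.4 on high glucose replicate 1 and of 869.3 to 891.4 on the other arrays. Median centring moved the median of all probe sets from -0.06 to 0.11, and the share of higher probe sets among the calls from 45.9% to 63.0%. Of the HEK293 markers NEFL was bright, at 1179 to 1442 signal units, while PAX2 lay near the filter and NEFM below it. The brightest NEFL probe set was not past the threshold, but 1 of its 3 above the filter was called higher. EYA1 was lower in high glucose, at 35.8 and 25.1 against 55.4 and 66.4 (limma adjusted p = 0.027), and LHX1 higher, at 67.3 and 75.1 against 32.5 and 21.0 (limma adjusted p = 0.0072), each with 1 group's mean under the filter signal. KRT8 and KRT18 carried nearly all of the summed signal of 4 epithelial markers, 13893 and 16297 in high and 7183 and 7242 in low glucose, with CDH1 and EPCAM below the filter. Both keratin probe sets end in _x_at, which marks probes that may cross-hybridise. The summed signal of 4 fibroblast markers was 520.5 and 516.0 against 321.9 and 348.1, with DCN and LUM below the filter, and all blood and hepatocyte markers measured lay below it. Each marker was read by its brightest probe set, and for COL1A1 1 of the 3 above the filter was called lower in high glucose, opposite to the brightest. The part of these differences in the family's values was not tested.

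The other genes of the apoptosis pathway were taken from 9 lists of textbook genes, each gene read by its brightest probe set. The lists were chosen with earlier results of these data known, and most genes named have the smallest p of their list. Their adjusted p-values are therefore a description of these arrays and no independent support. Of 72 entries 65 had a single-gene probe set and 59 passed the filter. Of these, 17 rose, 19 fell and 23 did not pass the test in high glucose (limma, adjusted p under 0.05). Without KCNIP3 and MYCN, which passed the filter only through low glucose, 17 of 57 rose and 17 fell. Over all 12242 genes 56.4% were past it, 23.8% higher and 32.6% lower. After median centring 23 of the 59 rose and 14 fell.

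Of 6 other BH3-carrying genes, 3 fell and 1 rose. BMF fell 1.81-fold, from 188.4 and 194.2 in low to 99.9 and 111.2 in high glucose (limma adjusted p = 0.0020). BAD, which is switched off by survival kinases, fell 1.70-fold (limma adjusted p = 0.0014), and BNIP3L, a mitophagy receptor, 1.60-fold (limma adjusted p = 4.6e-04). The direction of these 3 was that of HRK, BCL2L11 and PMAIP1, and 32.6% of all genes fell. BECN1 rose 1.33-fold (limma adjusted p = 0.0040), the direction of 2 of 3 BID probe sets, and BIK and BNIP3 did not pass. Only 3 of 8 further multidomain relatives passed the filter. BCL2L2 (BCL-W), a survival gene, fell 1.50-fold (limma adjusted p = 0.0036), and BCL2L12 and BCL2L13 stood at -0.05 and -0.06 and did not pass, although 1 of the 4 BCL2L13 probe sets above the filter was called higher.

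Downstream of the family, 6 of 9 mitochondrial docking and permeability genes rose and 1 fell. Over all genes 23.8% rose and 32.6% fell. Nothing is read from the counts of this list or the next, which were chosen with results of these data known. VDAC3 rose 1.75-fold (limma adjusted p = 7.6e-05) and VDAC1, an outer membrane channel, 1.51-fold (limma adjusted p = 5.6e-04). MTCH2, a docking site for BID, rose 1.47-fold (limma adjusted p = 6.2e-04), while VDAC2, which holds BAK1 in the membrane, stood at -0.09 and did not pass. Of 6 released factors and apoptosome genes 2 rose and 3 fell. CYCS, cytochrome c, rose 1.23-fold and AIFM1 1.28-fold, and HTRA2 fell 1.46-fold (limma adjusted p = 0.011, 0.0053 and 3.8e-04). A further CYCS probe set was called in the opposite direction. The CYCS call was lost without low glucose replicate 1 or 2 (adjusted p = 0.088 and 0.087, and 0.058 without the intensity trend).

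Of 4 caspases above the filter, CASP6 rose 1.86-fold (limma adjusted p = 2.8e-04) and CASP8, which cleaves BID, 1.29-fold (adjusted p = 0.022). CASP9, the apoptosome caspase, fell 1.30-fold (adjusted p = 0.0497). The CASP8 call was lost without high glucose replicate 1 (adjusted p = 0.15) or low glucose replicate 1 (0.055). The CASP9 call was lost under most other settings, among them without high glucose replicate 1 (adjusted p = 0.26) and without low glucose replicate 1 (0.15) or 2 (0.059). CASP2 did not pass in its brightest probe set, but 2 of its 4 above the filter were called higher. Of 6 inhibitor of apoptosis genes 2 rose, with BIRC5 (survivin) 1.39-fold and BIRC6 1.21-fold higher (limma adjusted p = 5.7e-04 and 0.019). BIRC2 stood at 0.09 and did not pass. XIAP did not pass in its brightest probe set either, but 2 of its 7 above the filter were called lower. The BIRC6 call was lost without high glucose replicate 1 (adjusted p = 0.13) or low glucose replicate 1 (0.052). Among all genes 23.8% rose and 32.6% fell, and nothing is read from the counts of these 2 lists.

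In the death receptor pathway, which acts on BID, 2 of 7 genes rose and 2 fell. Among all genes 23.8% rose and 32.6% fell, and nothing is read from the list counts given here. TNFRSF10B, a TRAIL receptor, fell 1.99-fold, from 2060 and 2115 to 1051 and 1049 (limma adjusted p = 2.2e-05), and TNFRSF1A 2.03-fold (adjusted p = 4.9e-05). CFLAR, an inhibitor of caspase-8, rose 1.69-fold in its brightest probe set (adjusted p = 0.0059), with 2 of its 9 probe sets above the filter called. FAS did not pass in its brightest probe set, but 2 of its 4 above the filter were called higher. Among 8 genes acting on MCL1 or BIM protein, HUWE1, a ubiquitin ligase for MCL1, fell 1.48-fold (adjusted p = 0.0068), GSK3B fell 1.33-fold (0.0032) and DYNLL1, a dynein light chain that holds BIM, rose 1.27-fold (0.0039). The other 5 did not pass in their brightest probe set, but each had a further probe set past the threshold. Among those above the filter these were 1 of 4 for USP9X, 2 of 3 for FBXW7 and 2 of 3 for BTRC. They were 1 of 2 for MARCHF5 and 1 of 3 for DYNLL2, both opposite in direction to the brightest probe set. HUWE1 stood at -0.07 and was not called after quantile normalization (adjusted p = 0.10), nor without low glucose replicate 2 (0.054), and 1 further GSK3B probe set was called in the opposite direction. The brightest probe sets of HUWE1 and CFLAR end in _x_at, which marks probes that may cross-hybridise.

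Transcription factors known to act on HRK, PMAIP1 or BCL2L11 fell in 6 of 10 measured cases and rose in 1. KCNIP3 and MYCN, both among the falls, had a high glucose mean under the filter signal and passed the filter only through low glucose. Without these 2 genes, 4 of 8 fell and 1 rose, with a median of -0.53 log2 units. Over all genes 32.6% fell and 23.8% rose, with a median of -0.10. Nothing is read from the contrast, because the list was chosen with results of these data known. DDIT3, also among the genes most like HRK, fell 23.0-fold (limma adjusted p = 6.6e-07). JUN, which acts on HRK and BCL2L11 in neurons, fell 2.22-fold, from 2584 and 2779 to 1230 and 1188 (adjusted p = 2.0e-05), and ATF4, the amino acid response factor, 2.21-fold (adjusted p = 7.1e-05). The brightest JUN probe set ends in _x_at, which marks probes that may cross-hybridise, and all 4 JUN probe sets above the filter were called lower. The falls of JUN and ATF4 were similar in size to that of the brightest BCL2L11 probe set and far smaller than that of HRK. E2F1 did not pass in its brightest probe set, but 1 of its 2 above the filter was called lower. The listed factors were not tested for an effect on the family.

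**Figure D3:**
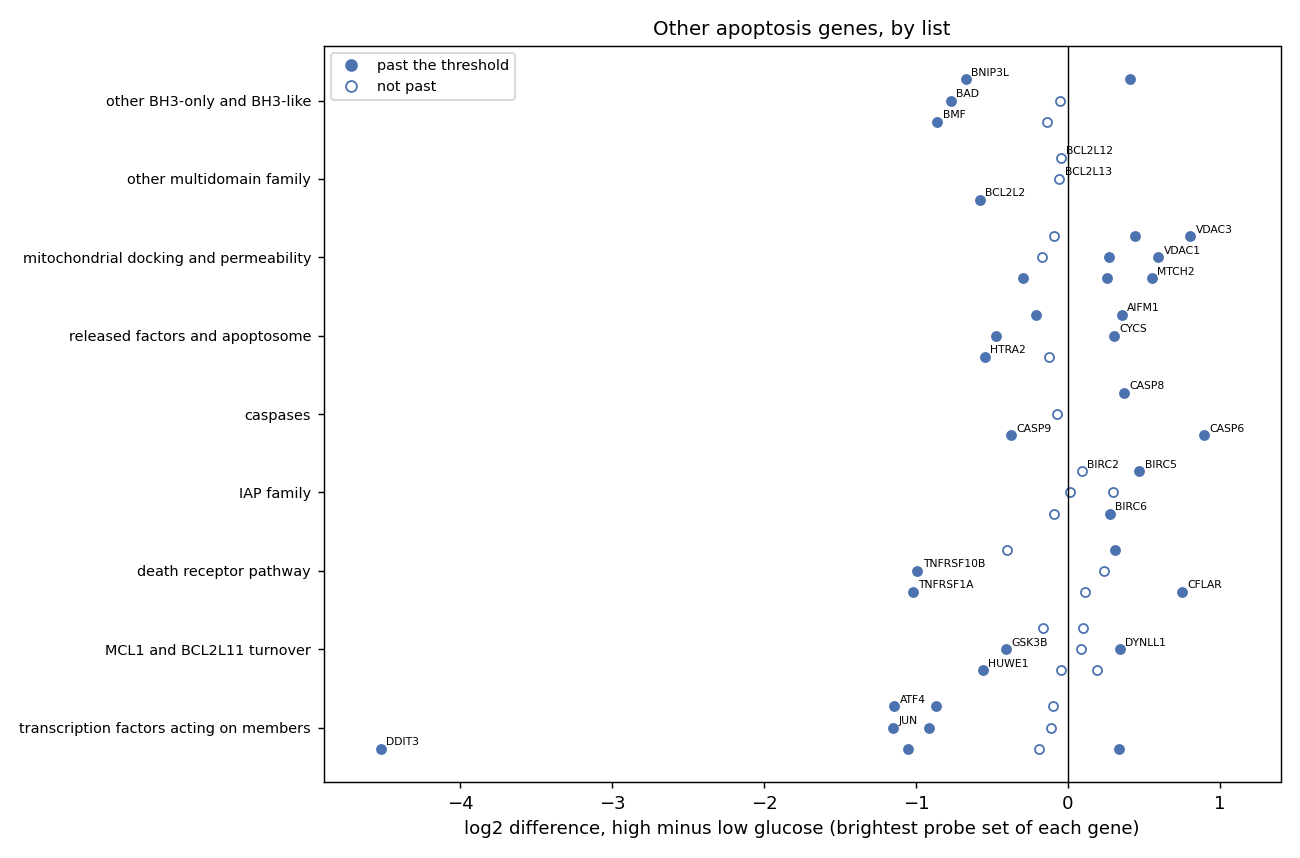
Log2 difference, high minus low glucose, of the 59 other apoptosis genes above the filter, each by its brightest probe set, in 9 rows by list. Filled points were past the threshold, and up to 3 genes per list with the smallest p are named. DDIT3 stands at -4.52, CASP6 is the highest at 0.90, and most other genes lie between -1.15 and 0.80.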

How the data were processed

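The deposited values are signal intensities, 1 per probe set and array. The submitters' processing notes name GCOS without a version, and no other step is given in the sources used here. The 2% trimmed mean was the same on each array, so the authors had scaled the intensities deposited here to a common level, which hides a change common to all transcripts. Detection calls were not used here.

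Signals were log2-transformed with no pseudocount. Of 54675 probe sets, 62 controls were left out, and those with a mean log2 signal at or above the median (signal 32.9) were kept, 27307 in all. The groups were compared by limma (version 3.58.1, R 4.3.3; lmFit, eBayes with intensity trend, 2 arrays per group, two-sided, Benjamini-Hochberg over all kept probe sets). Fold changes come from means of log2 signal, and p-values measure only the spread between these samples. The platform annotation assigned 1 gene to 41097 probe sets, several to 1801 and none to 11777, and only the first were named. Symbols follow RefSeq (41043 matched).

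The members and lists were chosen with earlier results of these data known. All single-gene probe sets of the members are named, with up to 3 genes of smallest p per list and the 5 genes most like HRK. VDAC2, the other list genes named beside these and the motifs were chosen after values had been seen. The code was tested on simulated data. Alternatives covered normalization, filter, pseudocount, trend, 1 probe set per gene, each array left out and a replicate block.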

Additional observations from a re-analysis of the deposited data

How the results depend on the processing

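The brightest HRK probe set, 229552_at, stood between -4.39 and -4.14 log2 units over 13 alternatives, with the value nearest 0, -4.14, after median centring, and between -4.39 and -4.22 when 1 array was left out. Of the values of family probe sets under alternatives, 294 moved by no more than the replicate spread and 29 by more, and no called difference changed sign. The count of family probe sets past the threshold and higher in high glucose was 6, but 2 with no trend and 2 to 5 when 1 array was left out, with 2 without high glucose replicate 2. The count of lower ones stayed between 9 and 12 in those. With 1 probe set per gene there were 3 higher and 4 lower, because fewer probe sets were tested, and likewise 2970 higher and 4079 lower over all genes, against 6318 and 7441. With the stricter filter 4553 probe sets were lower. Of the listed genes 10 rose with no trend, against 17, and 12 to 17 rose when 1 array was left out. BCL2L12 and BCL2L13, neither of them called, turned to 0.12 and 0.11 after median centring, and BCL2L13 ranged from -0.15 to 0.03 when 1 array was left out, with 0.033 without high glucose replicate 1. With the replicate block 6 family probe sets were higher and 10 lower, the same counts as without it, but BID 204493_at lost its call and BAX 208478_s_at gained one. The labels do not say that a number marks a shared batch, and replicate differences in both groups correlated with r = 0.008 across probe sets. Except for these counts, the cause of a change was not tested. With 2 arrays per group and no detection calls, differences among signals near 32.9 are poorly determined.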
